A study of Saccharomyces cerevisiae with 2 samples.

Results

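The thioredoxin system and the peroxiredoxins of *Saccharomyces cerevisiae* were examined as 10 named genes, chosen by their symbol: *TSA1*, *TSA2*, *AHP1*, *PRX1*, *DOT5*, *TRX1*, *TRX2*, *TRX3*, *TRR1* and *TRR2*. All 10 were listed in both deposited tables, which have 5577 genes in common. ZK2 is described by its labels only as a bioethanol strain, with no genotype given. It was set against BYZ1, a diploid laboratory strain (MATa/MATalpha) of S288c descent homozygous for deletion alleles of *URA3*, *LEU2* and *HIS3* (his3delta1/his3delta1, leu2delta0/leu2delta0, ura3delta0/ura3delta0) and heterozygous for those of *LYS2* and *MET15* (lys2delta0/+, met15delta0/+). Both were grown in 25 mL YPD from an OD600 of 0.05 to early stationary phase, and libraries of poly(A)-selected RNA were run on an Illumina HiSeq. The methods of the study describe the RNA of a sample as drawn from several cultures, and the paper does not describe ZK2. By the labels, the medium held yeast extract at 10 g/L, peptone at 20 g/L and glucose at 20 g/L for ZK2 and 1, 2 and 2 g/L of the same for BYZ1, whereas the methods of the study give the richer recipe for BYZ1 as well. If the labels are right, strain and medium cannot be told apart.

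The ZK2 library held 4.57 M uniquely mapped gene reads over 5605 genes, and the BYZ1 library held 4.69 M such reads over 5671 genes. With 1 library per strain there is no replicate check, and the strains could not be tested against each other. Levels are given as RPKM, the reads of a gene scaled by its coding length and by the total of the library, with the exact Poisson 95% interval of the reads where needed, and ratios of ZK2 to BYZ1 carry an exact conditional binomial 95% interval. These intervals cover counting error only, not differences between cultures. The labels were checked on the deleted genes. *URA3* had 123 reads in ZK2 and 0 in BYZ1, and *LEU2* had 360 in ZK2 and 1 in BYZ1, while *HIS3*, whose deletion allele keeps part of the ORF, had 159 reads in ZK2 and 156 in BYZ1.

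Peroxiredoxins are thiol peroxidases that reduce hydrogen peroxide and organic hydroperoxides with a reactive cysteine. The disulfide that forms is then reduced by a thioredoxin, and the thioredoxin by an NADPH-dependent thioredoxin reductase. Yeast keeps such a chain in the cytosol, with the peroxiredoxins Tsa1, Tsa2 and Ahp1, the thioredoxins Trx1 and Trx2 and the reductase Trr1. A separate chain lies in the mitochondrion, with the peroxiredoxin Prx1, the thioredoxin Trx3 and the reductase Trr2. Dot5 is the nuclear peroxiredoxin. The Yap1 transcription factor, which peroxide activates through a disulfide, and the general stress factors Msn2 and Msn4 are known regulators of many antioxidant genes.

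The catalytic cysteines carry the chain from enzyme to enzyme, so the DNA around them is shown for each kind of enzyme, read from the S288c reference R64 of RefSeq by its annotation. Capitals mark the codons of the Cys-Gly-Pro-Cys motif in thioredoxins, of the Cys-Ala-Val-Cys motif in the reductases, and of Val-Cys-Pro around the peroxide-reacting cysteine in Tsa1 and Tsa2, with 21 bases on each side.
*TRX1* (chr12:231894-231947, minus strand): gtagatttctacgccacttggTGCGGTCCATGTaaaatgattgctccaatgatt
*TRX2* (chr7:913105-913158, minus strand): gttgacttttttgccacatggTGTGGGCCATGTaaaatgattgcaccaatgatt
*TRX3* (chr3:259719-259772, plus strand): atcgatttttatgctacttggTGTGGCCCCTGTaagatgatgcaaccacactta
*TRR1* (chr4:1183701-1183754, plus strand): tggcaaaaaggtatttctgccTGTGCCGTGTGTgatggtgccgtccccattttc
*TRR2* (chr8:326069-326122, plus strand): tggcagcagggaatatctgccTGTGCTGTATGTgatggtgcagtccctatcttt
*TSA1* (chr13:220255-220305, plus strand): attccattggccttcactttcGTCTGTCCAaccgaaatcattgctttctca
*TSA2* (chr4:1365495-1365545, minus strand): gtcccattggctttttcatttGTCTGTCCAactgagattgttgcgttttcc
The 3 thioredoxin genes encode the same 4 residues with partly different codons, and so do both reductase genes. Tsa1 and Tsa2 have 196 residues each, of which 168 (85.7%) were identical. Trx1 and Trx2 were identical at 78.6% of 103 aligned residues, and Trr1 and Trr2 at 85.6% of 319, whereas Trx1 and the mitochondrial Trx3 shared 45.1% of 102. At the DNA level the longest identical run was 14 bases between *TSA1* and *TSA2*, 17 between *TRX1* and *TRX2* and 20 between *TRR1* and *TRR2*. None of the 50-base windows of any of these ORFs matched its paralog with 2 or fewer mismatches, so in the reference sequence a read of this length does not match both copies at that limit. The ORF sequences of ZK2 were not analysed here.

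Transcripts of peroxiredoxins led the system in both strains. *TSA1*, the main cytosolic peroxiredoxin gene, had an RPKM of 3270.4 in ZK2 and 2766 in BYZ1, rank 32 of 5605 genes in ZK2 and rank 45 of 5671 in BYZ1. The mitochondrial *PRX1* came next in both, at 1627 in ZK2 and 1195 in BYZ1. The lowest member was *TSA2* in ZK2, at 14.8, and *DOT5* in BYZ1, at 44.4. The highest member was 221 times the lowest in ZK2 and 62.2 times in BYZ1. For comparison, the median listed gene had an RPKM of 33.9 in ZK2 and 37.2 in BYZ1, so every member but *TSA2* in ZK2 lay above the median of its library. Together the 10 genes took 0.407% of the gene reads in ZK2 and 0.386% in BYZ1.

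**Figure D1:**
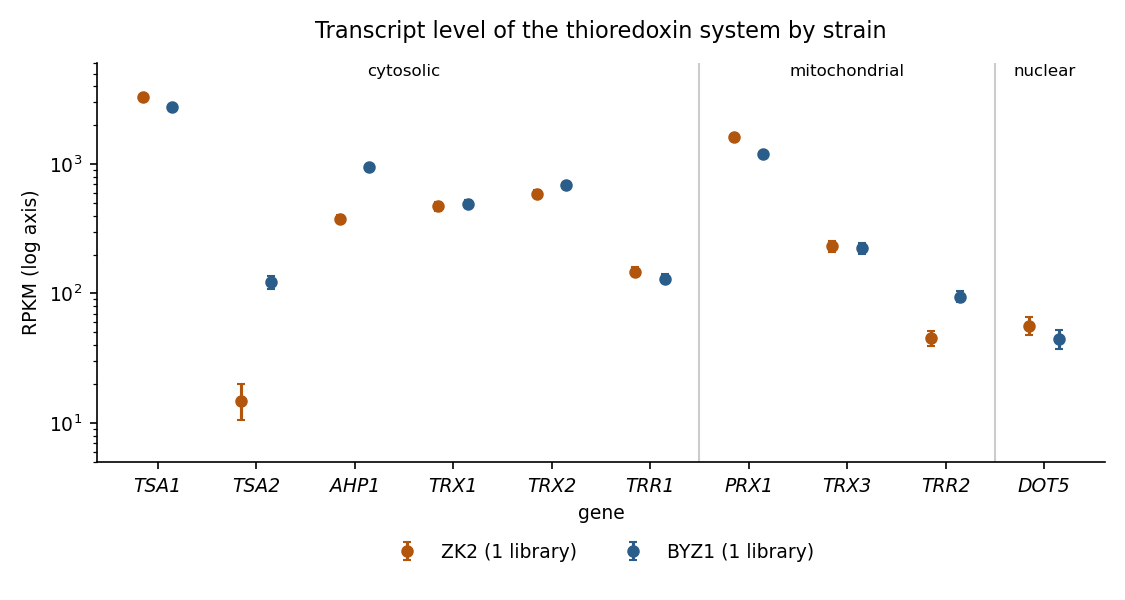
RPKM of each member on a log axis, ZK2 left of BYZ1 within each gene, with exact Poisson 95% intervals of the reads (1 library per strain, counting error only). The points of *TSA2*, *AHP1* and *TRR2* lie clearly apart between the strains, with ZK2 at 14.8, 379 and 45.1 and BYZ1 at 122, 948 and 94.8, while those of the thioredoxins lie close together.

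From high to low the order in ZK2 was *TSA1*, *PRX1*, *TRX2*, *TRX1*, *AHP1*, *TRX3*, *TRR1*, *DOT5*, *TRR2* and *TSA2*. In BYZ1 it was *TSA1*, *PRX1*, *AHP1*, *TRX2*, *TRX1*, *TRX3*, *TRR1*, *TSA2*, *TRR2* and *DOT5*. Neighbors in these orders differed beyond counting error, judged by the interval of their read ratio per length, with the exception of *TRR1* and *TSA2* in BYZ1 (ratio 1.07, 0.936 to 1.23). *TSA1*, *PRX1*, *TRX3*, *TRR1* and *TRR2* held the same places in both strains. *AHP1* stood below both cytosolic thioredoxins in ZK2 and above them in BYZ1, and *TSA2* stood last in ZK2 and above *TRR2* and *DOT5* in BYZ1.

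For each gene the log2 ratio of ZK2 to BYZ1 was taken after adding 1 to the RPKM, and 5080 genes that reached an RPKM of 10 in either library were compared. A gene was called where its log2 ratio reached 1 in either direction. All 10 members passed this filter in each library on its own. Called lower in ZK2 were 3 of 10 members, *TSA2*, *AHP1* and *TRR2*, where 10.3% of all genes compared were called lower. Called higher were 0 of 10, where 7.91% of all genes were. With so few members these counts describe the 3 genes and not the group. The median log2 ratio of the members was -0.0050, against -0.17 for all genes compared, so ratios are also given relative to this shift. With TMM or the median ratio of genes as the scale, which remove the shift and put the members' median at 0.17, and with a pseudocount of 5, 2 members (*TSA2* and *AHP1*) were called lower. With TMM 6.81% of all genes were called lower and 10.5% higher, and the higher genes made up 60.7% of those called, against 43.4% with the deposited totals.

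**Figure D2:**
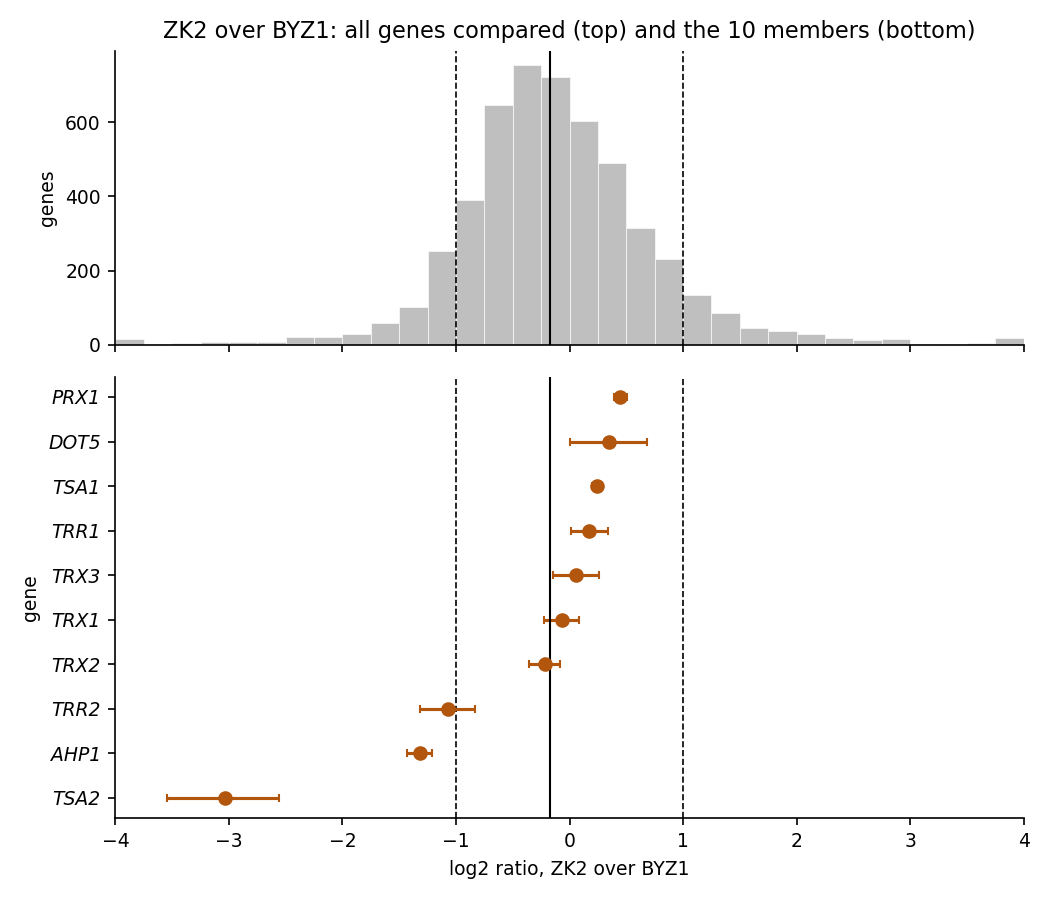
Top, number of genes by log2 ratio of RPKM plus 1 of ZK2 to BYZ1 for the 5080 genes compared, with values beyond 4 in size put into the end bins. Bottom, log2 ratio of RPKM of each member without a pseudocount, with its exact binomial 95% interval. Dashed lines mark the size at which a gene was called and the solid line the median of all genes, -0.17. *TSA2*, *AHP1* and *TRR2* lie at or beyond the left dashed line, and the other 7 members lie between the lines.

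The cytosolic peroxiredoxins differed in opposite directions. *TSA2*, the stress-inducible paralog of *TSA1*, lies on the minus strand of chromosome 4 from 1365065 to 1365655 (sacCer2, as in the submitters' processing notes). It had 40 reads in ZK2 and 337 in BYZ1, an RPKM of 14.8 (10.6 to 20.2) in ZK2 and 122 (109 to 135) in BYZ1. The ratio was 0.122 (0.0854 to 0.169), a log2 ratio of -2.96, or -2.78 relative to the median of all genes. Of the 5080 genes compared, 28 had a lower log2 ratio. Reads covered 84.8% of its coding length in ZK2 and 97.3% in BYZ1. Among the 52 genes of ZK2 with 30 to 50 reads and a length of 500 to 700 bp, the group that *TSA2* falls in, the median coverage was 87.9% (33.7% to 98.3%). Of these, 35 had a higher coverage than *TSA2*, which thus lay below the median but within the range of genes at this depth. In a bulk culture, fewer expressing cells and less RNA per cell cannot be told apart. Where ZK2 differs in sequence from the reference genes, its reads can also be lost in alignment, for this or any other gene. This was not tested.

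*AHP1* encodes a peroxiredoxin with a preference for organic hydroperoxides and lies on chromosome 12 (plus strand, 368782 to 369312). It had 921 reads in ZK2 and 2359 in BYZ1, an RPKM of 379 (355 to 405) in ZK2 and 948 (910 to 987) in BYZ1. The ratio was 0.400 (0.371 to 0.432), a log2 ratio of -1.32, or -1.15 relative to the median, and 231 genes had a lower one. Coverage was 99.3% in both strains, so the deposited reads span nearly the whole ORF in each. *TSA1* (chromosome 13, plus strand, 220138 to 220728) had 8835 reads in ZK2 and 7662 in BYZ1, and its level was slightly higher in ZK2 (ratio 1.18, 1.15 to 1.22). Within each library, *TSA1* was 221 times as high as *TSA2* in ZK2 and 22.7 times in BYZ1, and 8.62 times as high as *AHP1* in ZK2 and 2.92 times in BYZ1. Such a ratio within a library does not depend on how the libraries are scaled, and the quotient of the ZK2 and BYZ1 values was 9.71 (6.97 to 13.9) for *TSA1* to *TSA2* and 2.95 (2.72 to 3.21) for *TSA1* to *AHP1*.

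*PRX1* encodes the mitochondrial peroxiredoxin, a 1-Cys enzyme that depends on thioredoxin reductase Trr2 and glutathione for its reactivation. It lies on the minus strand of chromosome 2 from 100373 to 101158 and had 5844 reads in ZK2 and 4401 in BYZ1. Its RPKM was 1627 (1585 to 1669) in ZK2 and 1195 (1160 to 1230) in BYZ1, a ratio of 1.36 (1.31 to 1.42), the largest of the 10 members. The log2 ratio of 0.44, or 0.62 relative to the median, was under the size called, and 1037 of the 5080 genes had a higher one. *DOT5* (chromosome 9, plus strand, 334879 to 335526) was the least expressed peroxiredoxin of BYZ1. It had 167 reads in ZK2 and 135 in BYZ1, an RPKM of 56.4 (48.2 to 65.6) in ZK2 and 44.4 (37.3 to 52.6) in BYZ1. The intervals of the strains overlap, and that of the ratio lies just above 1 (ratio 1.27, 1.005 to 1.60).

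By these values the peroxiredoxin transcripts of ZK2 were more concentrated on *TSA1* and *PRX1*. Of the summed RPKM of the 5 peroxiredoxin genes, *TSA1* made up 61.2% in ZK2 and 54.5% in BYZ1, and *PRX1* 30.4% in ZK2 and 23.5% in BYZ1. *AHP1* made up 7.10% in ZK2 and 18.7% in BYZ1, and *TSA2* 0.277% in ZK2 and 2.40% in BYZ1. The sum itself was 5348 in ZK2 and 5075 in BYZ1.

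None of the 3 thioredoxin genes was called, and their RPKM summed to 1294 in ZK2 and 1405 in BYZ1. *TRX2*, on the minus strand of chromosome 7 from 912918 to 913232, had an RPKM of 590.3 (551 to 631) in ZK2 and 687 (646 to 731) in BYZ1, a ratio of 0.859 (0.783 to 0.942). Its paralog *TRX1*, on the minus strand of chromosome 12 from 231703 to 232014, was at 471 (436 to 508) in ZK2 and 494 (458 to 531) in BYZ1. The *TRX1* ratio of 0.954 (0.858 to 1.06) includes 1, and its log2 value of -0.07 turned to 0.11 with the TMM factor and 0.10 with the median of gene ratios. *TRX3*, the mitochondrial thioredoxin gene (chromosome 3, plus strand, 259575 to 259958), was at 232 (210 to 256) in ZK2 and 223 (202 to 246) in BYZ1, a ratio of 1.04 (0.905 to 1.20). *TRX2* was 1.25 times as high as *TRX1* in ZK2 and 1.39 times in BYZ1, and the quotient of the strains, 0.90 (0.781 to 1.04), was within counting error. *TRX1* was 2.03 times as high as *TRX3* in ZK2 and 2.21 times in BYZ1, with a quotient of 0.917 (0.768 to 1.09) whose interval includes 1. *TRX2* was 2.54 times as high as *TRX3* in ZK2 and 3.08 times in BYZ1, with a quotient of 0.825 (0.697 to 0.977) below 1, so *TRX2*, the higher of the cytosolic thioredoxin genes, was lower relative to *TRX3* in ZK2 beyond counting error. The shares of *TRX1*, *TRX2* and *TRX3* were 36.4%, 45.6% and 17.96% in ZK2 and 35.2%, 48.9% and 15.9% in BYZ1.

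The reductases differed in their balance. *TRR1*, the cytosolic reductase gene (chromosome 4, plus strand, 1183293 to 1184252), had 645 reads in ZK2 and 587 in BYZ1, an RPKM of 147 (136 to 159) in ZK2 and 130.5 (120.1 to 141) in BYZ1 (ratio 1.13, 1.01 to 1.26). *TRR2*, the mitochondrial one (chromosome 8, plus strand, 325601 to 326629), had 212 reads in ZK2 and 457 in BYZ1, an RPKM of 45.1 (39.2 to 51.6) in ZK2 and 94.8 (86.3 to 104) in BYZ1. Its ratio of 0.476 (0.402 to 0.561) is a log2 ratio of -1.06, just past the size called, and it was -0.88 relative to the median of all genes. *TRR2* was not called with the TMM factor, with the median of gene ratios or with a pseudocount of 5. The comparison within libraries is free of the scale. *TRR1* was 3.26 times as high as *TRR2* in ZK2 and 1.38 times in BYZ1, a quotient of 2.37 (1.94 to 2.90). *TRX3* was 5.16 times as high as *TRR2*, its reductase, in ZK2 and 2.36 times in BYZ1, a quotient of 2.19 (1.76 to 2.72). *TRR1* made up 76.5% of the summed RPKM of both reductases in ZK2 and 57.9% in BYZ1.

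**Figure D3:**
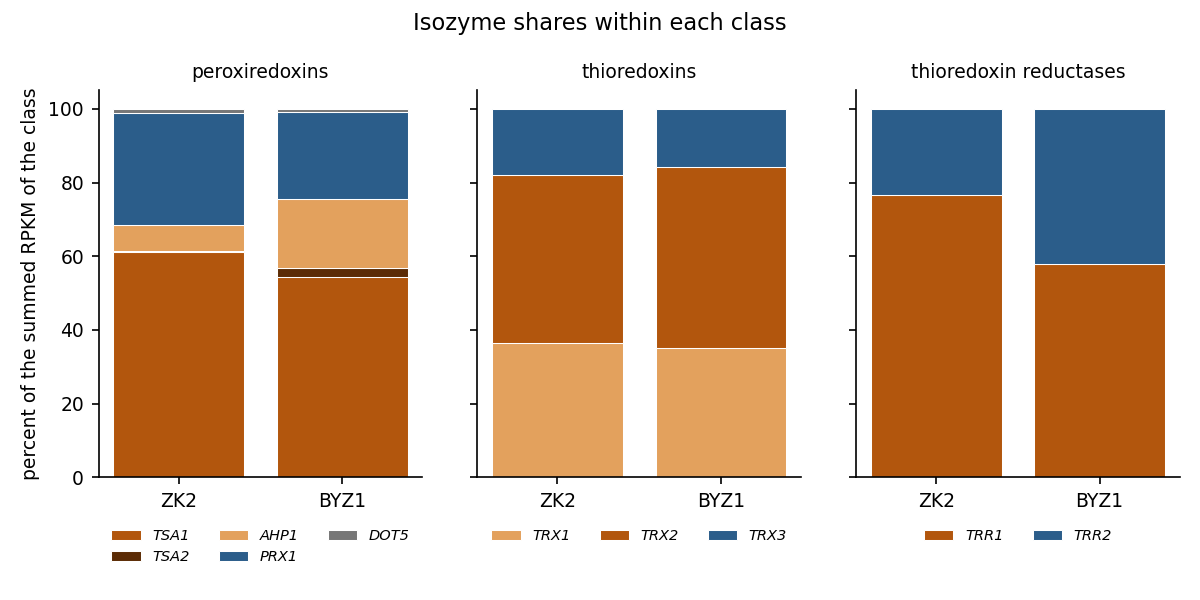
Share of each isozyme in the summed RPKM of its class, as stacked bars with ZK2 left of BYZ1. Brown shades are cytosolic, blue mitochondrial and grey nuclear genes. *TRR2* (23.5% in ZK2, 42.1% in BYZ1) and *AHP1* (7.10% in ZK2, 18.7% in BYZ1) take smaller shares in ZK2, and the thioredoxin shares are nearly alike.

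The cytosolic system was then set against the mitochondrial one. The 6 cytosolic genes summed to an RPKM of 4873 in ZK2 and 5147 in BYZ1, and the 3 mitochondrial genes to 1904 in ZK2 and 1513 in BYZ1. The cytosolic sum was 2.56 times the mitochondrial sum in ZK2 and 3.40 times in BYZ1, a ratio of 0.752 (approximate Poisson 95% interval, 0.719 to 0.787). This lower value rested on the peroxiredoxins. For the peroxiredoxins alone (*TSA1*, *TSA2* and *AHP1* over *PRX1*) the cytosolic sum was 2.25 times the mitochondrial one in ZK2 and 3.21 times in BYZ1 (ratio 0.702, 0.669 to 0.736). For thioredoxins and reductases alone it was 4.35 times in ZK2 and 4.12 times in BYZ1, a ratio of 1.06 (0.929 to 1.20) whose interval includes 1. Without *PRX1*, the mitochondrial member of highest RPKM, the ratio of the systems was 1.09 (0.967 to 1.22), and without *TSA1*, the highest cytosolic one, it was 0.535 (0.503 to 0.568). The mitochondrial genes differed among themselves, with *PRX1* higher in ZK2, *TRX3* near 1 and *TRR2* lower. *PRX1* was 6.998 times as high as *TRX3* in ZK2 and 5.35 times in BYZ1, a quotient of 1.31 (1.13 to 1.51).

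Other genes of the pathway were listed by role, and each list is given beside the median log2 ratio of -0.17 for all genes. Of all genes compared, 10.3% were called lower and 7.91% higher. The lists are small, and their counts were not tested against these shares. Of 6 regulators of the peroxide response, 1 was called higher and 0 lower, with a median of 0.20. The stress factor gene *MSN4* had an RPKM of 115 in ZK2 and 46.1 in BYZ1 (ratio 2.502, 2.23 to 2.81). *HYR1*, the peroxidase that relays peroxide to Yap1, had the highest level of the list, 931 in ZK2 and 841 in BYZ1. *YAP1* itself was at 127 in ZK2 and 139.7 in BYZ1, a ratio of 0.909 (0.839 to 0.986) that lay on the other side of equality, at a log2 value of 0.04, relative to the median of all genes.

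Of 7 genes for enzymes that thioredoxin reduces or that repair peroxiredoxin, 6 were compared and *MET16* was under the minimum RPKM. The median was -0.27, with 1 called higher and 0 lower. *RNR1*, the large subunit of ribonucleotide reductase, was at 271 in ZK2 and 102 in BYZ1 (ratio 2.67, 2.499 to 2.85). *MXR2*, a mitochondrial methionine sulfoxide reductase gene, had the highest level of this list in BYZ1, with 116 in ZK2 and 196 in BYZ1. *SRX1*, the sulfiredoxin gene that repairs overoxidized Tsa1, had 28 reads in ZK2 and 47 in BYZ1. Of 9 further genes known as Yap1 targets, 2 were called higher and 0 lower, with a median of -0.31. These were the NADPH dehydrogenase genes *OYE2*, at 574 in ZK2 and 221 in BYZ1, and *OYE3*, at 170.2 in ZK2 and 73.2 in BYZ1. The mitochondrial cytochrome c peroxidase gene *CCP1* had the highest BYZ1 level of this list, with 534 in ZK2 and 856 in BYZ1. With the TMM factor 3 of these 9 were called higher. The cytosolic members stood on both sides, with *TSA2* and *AHP1* lower and *TSA1* and *TRR1* slightly higher in ZK2. Beside them *TRX2* was at a ratio of 0.859 and *TRX1* at 0.954. Which of the members Yap1 controls was not examined.

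Genes that supply the NADPH used by the reductases were listed by compartment. Of 5 such cytosolic genes, 1 was called lower and 0 higher (median -0.61). It was the 6-phosphogluconate dehydrogenase gene *GND2*, at 423 in ZK2 and 1007 in BYZ1 (ratio 0.420, 0.402 to 0.439). Its paralog *GND1* was lower than *GND2* in both strains, at 49.7 in ZK2 and 43.0 in BYZ1 (ratio 1.16, 0.986 to 1.36). Unique reads of either gene can be understated where the 2 are near-identical. *IDP2*, the cytosolic NADP-isocitrate dehydrogenase gene, had the highest level, 614 in ZK2 and 1065 in BYZ1. None of 3 mitochondrial NADPH genes was called (median -0.17), the highest being *IDP1* at 203 in ZK2 and 263 in BYZ1. None of 5 other genes of mitochondrial peroxide and glutathione defense was called either (median -0.38), and the highest, the superoxide dismutase gene *SOD2*, was at 2357 in ZK2 and 3063 in BYZ1. Beside *PRX1*, at a ratio of 1.36, *SOD2* (0.769), *CCP1* (0.623) and the glutaredoxin gene *GRX2* (0.714) lay below 1. The glutathione reductase gene *GLR1* (1.49) and the glutaredoxin gene *GRX5* (1.14, 0.987 to 1.31) lay above it. *CCP1* and *GLR1* were also in the list of further Yap1 targets, so these lists are not separate.

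Values of 2 further lists are given as context, again beside the 10.3% of all genes called lower and the 7.91% called higher. Of 23 genes of the respiratory chain and ATP synthase, 1 was called higher and 0 lower, with a median of 0.09. It was *COX7*, at 691 in ZK2 and 289 in BYZ1, and the highest was *ATP2*, at 4789 in ZK2 and 3354 in BYZ1. With the TMM factor 2 were called higher. Of 13 stress genes that are induced toward stationary phase, 4 were called lower and 0 higher, with a median of -0.72. These were the small heat-shock gene *HSP26* (2026 in ZK2, 17553 in BYZ1) and the cytosolic catalase gene *CTT1* (95.7 in ZK2, 756 in BYZ1). The others were the hexokinase gene *HXK1* (61.1 in ZK2, 368 in BYZ1) and the Hsp70 gene *SSA4* (25.9 in ZK2, 117 in BYZ1). Unique reads of *SSA4* can be understated where it is near-identical to other *SSA* genes, which was not checked. The highest of the list, *HSP12*, was at 11786 in ZK2 and 22693 in BYZ1. *HSP12* was among the 9 genes of this list that were not called, as was *DDR2*, with nearly equal levels (5790.3 in ZK2, 5790.4 in BYZ1). Whether the strains were harvested at the same point of their growth was not tested, and the part of the growth stage in the *TSA2* and *AHP1* values cannot be told apart from the strain.

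**Figure D4:**
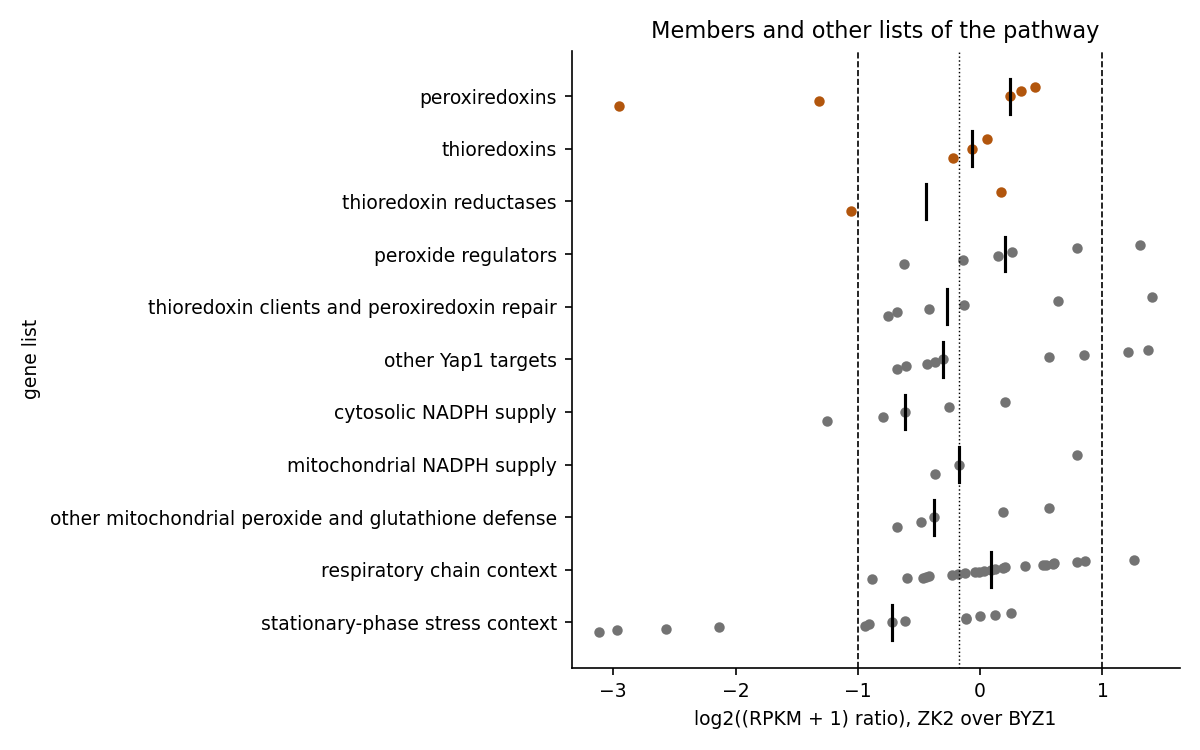
Log2 ratio of RPKM plus 1 of ZK2 to BYZ1 for each gene compared (points) in the member classes (brown) and the other lists (grey), with the median of each list as a black bar. The dotted line is the median of all genes, -0.17, and dashed lines mark the size called. The members *TSA2*, *AHP1* and *TRR2* and the stress genes *HSP26*, *CTT1*, *HXK1* and *SSA4* lie left of the left dashed line, with *GND2*.

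The promoters of the members were searched in the S288c reference R64, from 250 bases before the start codon to 50 bases into the ORF, for TTACTAA and TGACTAA, which Yap1 binds, and for AGGGG, the stress element that Msn2 and Msn4 bind, on both strands. They are shown for the 3 genes called lower, for *TSA1* as the paralog of *TSA2*, and for *TRX2* as the member with the most Yap1 motifs. Capitals mark the motifs, and AGGGG reads CCCCT where it lies on the other strand.
*TSA2* (chr4:1365613-1365912, minus strand): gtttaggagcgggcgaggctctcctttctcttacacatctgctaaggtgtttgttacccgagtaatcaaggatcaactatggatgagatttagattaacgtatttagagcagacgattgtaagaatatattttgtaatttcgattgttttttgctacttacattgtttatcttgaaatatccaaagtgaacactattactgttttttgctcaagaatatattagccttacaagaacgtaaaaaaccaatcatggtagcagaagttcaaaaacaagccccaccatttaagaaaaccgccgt
*TSA1* (chr13:219888-220187, plus strand): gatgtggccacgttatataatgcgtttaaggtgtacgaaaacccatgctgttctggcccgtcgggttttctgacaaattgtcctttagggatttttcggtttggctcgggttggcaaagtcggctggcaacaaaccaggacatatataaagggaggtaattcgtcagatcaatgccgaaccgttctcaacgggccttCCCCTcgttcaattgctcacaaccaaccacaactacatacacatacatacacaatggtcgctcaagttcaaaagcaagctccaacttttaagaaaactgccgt
*AHP1* (chr12:368531-368830, plus strand): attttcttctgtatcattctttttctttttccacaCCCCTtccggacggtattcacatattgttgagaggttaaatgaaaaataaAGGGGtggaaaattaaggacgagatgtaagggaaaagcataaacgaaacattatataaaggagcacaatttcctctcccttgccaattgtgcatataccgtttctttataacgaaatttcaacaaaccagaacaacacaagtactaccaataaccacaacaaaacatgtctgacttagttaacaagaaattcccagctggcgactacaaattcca
*TRR2* (chr8:325348-325647, plus strand): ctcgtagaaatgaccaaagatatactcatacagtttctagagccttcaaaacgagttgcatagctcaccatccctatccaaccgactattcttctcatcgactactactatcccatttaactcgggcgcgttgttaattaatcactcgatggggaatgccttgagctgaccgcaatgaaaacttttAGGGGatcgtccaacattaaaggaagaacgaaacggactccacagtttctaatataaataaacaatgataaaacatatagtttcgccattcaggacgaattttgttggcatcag
*TRX2* (chr7:913178-913477, minus strand): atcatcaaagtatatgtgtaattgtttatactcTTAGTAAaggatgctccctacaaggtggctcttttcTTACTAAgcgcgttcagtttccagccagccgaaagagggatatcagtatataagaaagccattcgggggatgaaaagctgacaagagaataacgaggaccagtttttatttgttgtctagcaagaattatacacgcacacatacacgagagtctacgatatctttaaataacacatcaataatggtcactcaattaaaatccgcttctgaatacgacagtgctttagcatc
The *TSA2* window held none of the 3 motifs, and that of *TSA1* held AGGGG at 53 bases before the start codon. *AHP1* had AGGGG at 215 and 165 bases before it, and *TRR2* at 64. TTACTAA was present in 1 of 10 member windows, that of *TRX2*, at 217 and 181 bases before the start codon, beside 7.47% of all 6007 promoter windows of this length. TGACTAA was present in 1 of 10, *TRR1*, beside 3.63% of all, and AGGGG in 5 of 10 (*TSA1*, *AHP1*, *PRX1*, *TRX3* and *TRR2*), beside 21.6% of all. Of the 5 genes with AGGGG, *AHP1* and *TRR2* were called lower in ZK2, and *TSA1*, *PRX1* and *TRX3* were not called. A match is a description of the reference and not a binding site, and the promoters of ZK2 were not analysed here.

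**Figure D5:**
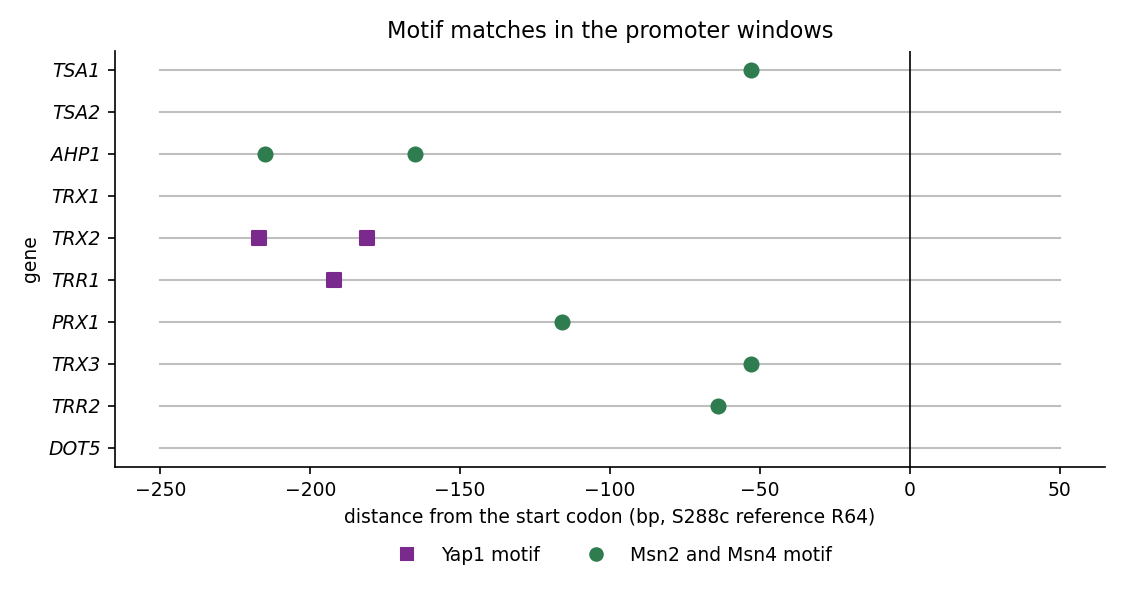
Matches of the Yap1 motifs (TTACTAA or TGACTAA, squares) and of the Msn2 and Msn4 motif (AGGGG, circles) on either strand, by distance of their first base from the start codon in bp, for the window of each member in the S288c reference. *TRX2* has a pair of Yap1 motifs, *TRR1* has 1, and the windows of *TSA2*, *TRX1* and *DOT5* have none of the motifs.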

How the data were processed

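The deposited table of each strain lists for every gene the count of uniquely mapped reads, the coding length, the RPKM and the percent of the length covered. The authors removed reads with adapters or mostly low-quality bases and aligned the rest to yeast genes with SOAPAligner at up to 2 mismatches. Its version, and the aligner used for ZK2, are not given in the sources used here. Unique reads were counted per gene, with no normalization other than the scaling to RPKM. The sources do not say whether strand was used. The deposited RPKM is the count per length and per total of these reads, and recomputation gave the same values. The deposited percent coverage was used as given. Genes with no read are not listed. The submitters' processing notes name sacCer2, whereas sequences are from R64 and were located by its annotation. Gene symbols were matched to R64 by gene identifier for 5693 of 5699 genes.

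Members were taken by symbol. Each group has 1 library, so values were compared without a test, and the read-sampling test of the study was not used. The log2 ratio used a pseudocount of 1 RPKM, which understates the change of low genes, and an RPKM minimum of 10. Alternatives in scale were TMM (edgeR 4.0.16), the median of gene ratios and totals that left out the 10 top genes. Others were a pseudocount of 0.1 or 5, and a minimum of 50 or none. Intervals came from scipy 1.17.1. The steps were tested on simulated counts with known changes larger than the size called and with counting error only. That test does not cover calls near the size called or differences between cultures. The members and lists were chosen with earlier results of these data known. All members were named, and in the other lists the genes called and the gene of highest RPKM. *YAP1*, *SRX1*, *DDR2*, *GND1*, *GRX2*, *GRX5* and *GLR1* were named after their values were seen. The paper's YJS329 library was not analysed here. PCR copies cannot be told from separate molecules, so intervals can be too narrow.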

Additional observations from a re-analysis of the deposited data

How the results depend on the processing

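The count of members called lower in ZK2 was 3 with the deposited totals, with totals without the 10 genes of highest RPKM, with a pseudocount of 0.1, with no filter and with a minimum RPKM of 50, and 2 with TMM, with the median ratio of genes or with a pseudocount of 5, where *TRR2* was no longer called. The count called higher was 0 in each of these settings. Over the 5 changes of scale and pseudocount the log2 ratio of *TSA2* ran from -3.03 to -2.68, that of *AHP1* from -1.32 to -1.14 and that of *TRR2* from -1.07 to -0.88. The sign of *TRX1* turned in 2 of these 5, and no other member's sign did. The ratio of the cytosolic to the mitochondrial system, 0.752, was 0.768 with reads in place of RPKM and 0.754 with *DOT5* counted as cytosolic. It was 0.535 without *TSA1*, 1.09 without *PRX1*, 0.702 for peroxiredoxins alone and 1.06 for thioredoxins and reductases alone. Its direction was thus not kept without *PRX1*. The ratio without *AHP1*, whose RPKM was 379 in ZK2 and 948 in BYZ1, was not computed, so the part of *AHP1* is not known. Over all genes, 524 were called lower with the deposited totals, 346 with TMM, 348 with the median of gene ratios and 366 with a pseudocount of 5, all of 5080 genes. The count was 513 without the 10 top genes and 563 with a pseudocount of 0.1, also of 5080, and 572 of 5577 with no filter. With a minimum of 50 it was 274 of 2573 genes, or 10.6%, close to the 10.3% of the deposited totals. No paired analysis was possible because each strain has 1 library. For the same reason no library could be left out. Depth limits *TSA2* most, with 40 reads in ZK2.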
